A study of Mus musculus with 8 samples.

Results

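The 9 cytokine genes Ifng, Il10, Il2, Il21, Il3, Csf1, Csf2, Lif and Tgfb1, associated with T cells, were followed through CD8+ T cells sorted from mouse tumors. Members were found by name in the deposited table of unnormalized intensities, in any letter case, and every probe was kept. This gave 11 of 25697 probes for 8 of the 9 genes, with 2 probes for Ifng, 3 for Lif and 1 for each of the others. Il2 was not analysed here. A probe counted as detected on an array when its detection p-value, set against that array's negative controls, was under 0.05, and a gene was tested if it was detected on at least 2 of the 8 arrays. Ifng, Il10, Csf1 and Tgfb1 passed, 4 of the 7893 genes tested.

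The cells came from B16.SIY.dsRed tumors, grown from mouse melanoma cells engineered with the model antigen SIY and a red fluorescent protein, and were taken 14 days after engraftment on both flanks of female C57BL/6 mice. All groups share the strain, the tumor line and the day, and neither mice nor cells were treated. The sort used 4-1BB, a costimulatory receptor, and the inhibitory receptors LAG3 and PD-1, and gave 4 populations. These were triple-negative cells (CD8+4-1BB–LAG3–PD-1–), PD-1+ cells (CD8+4-1BB–LAG3–PD-1+), LAG3+ cells (CD8+4-1BB–LAG3+) and double-positive cells (CD8+4-1BB+LAG3+), and the labels leave PD-1 open for LAG3+ and double-positive cells. Each population has 2 arrays, 1 from each of 2 experiments. The design text describes pooling the tumors of 10 mice, so a replicate is a pool and not an animal, and it does not say whether the mice were shared between experiments. The sources used here give no age for the mice.

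Between 5522 and 9044 probes were detected on an array, fewest on the PD-1+ arrays within each experiment. The PD-1+ replicates were also the least alike (r = 0.771 across genes, against 0.898 to 0.934 in the other populations). Cd8b1, a chain of CD8, and Cd3e, part of the receptor complex of T cells, were detected on all 8 arrays, with log2 levels of 12.08 to 12.54 and 10.92 to 11.71. The probe of Cd8a was detected on none, and Cd4 was detected on the 2 triple-negative arrays. Lag3 mRNA averaged 4.48 on the log2 scale in triple-negative cells, against 8.67 (PD-1+), 9.19 (LAG3+) and 9.34 (double-positive). In PD-1+ cells, sorted as lacking LAG3 on the surface, Lag3 mRNA was thus detected above the triple-negative level. LAG3+ minus PD-1+ was 0.53 for Lag3 on this scale (limma adjusted p = 0.609) and 1.80 with no normalization between arrays (adjusted p = 0.603).

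Interferon gamma is the main macrophage-activating and antigen-presentation-inducing product of cytotoxic T cells, and it acts through a receptor of the chains IFNGR1 and IFNGR2. IL-2, IL-21, IL-3 and GM-CSF (Csf2) are made by activated T cells for lymphocyte and myeloid growth, M-CSF (Csf1) maintains macrophages, and LIF signals through gp130 (Il6st). IL-10 and TGF-beta 1 restrain T cell and antigen-presenting cell activity. IL-10 is made by activated and regulatory T cells and by macrophages, and TGF-beta 1 is made as a latent protein that must be activated outside the cell.

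RefSeq promoter sequences (GRCm38.p6) were matched for 8 of the 9 genes, and the 250 bases before the start site are shown for Ifng, which had the clearest change, and for Csf1 and Tgfb1, the other tested members with a matched sequence. Capitals mark matches, on either strand, to 5 short motifs. The NFAT core was searched as GGAAA. The AP-1 site was searched as TGANTCA. The letters of the T-box site were AGGTGT. The TATA box was searched as TATAAA. The GC box was searched as GGGCGG. The motifs searched do not overlap one another in these windows.
Ifng (chr10:118440796-118441045, plus strand): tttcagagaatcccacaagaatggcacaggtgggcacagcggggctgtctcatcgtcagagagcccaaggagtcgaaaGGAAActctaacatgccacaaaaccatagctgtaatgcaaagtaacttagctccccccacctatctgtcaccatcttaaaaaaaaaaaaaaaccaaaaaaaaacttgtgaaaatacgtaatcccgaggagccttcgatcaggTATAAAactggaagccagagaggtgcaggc
Csf1 (chr3:107760470-107760719, minus strand): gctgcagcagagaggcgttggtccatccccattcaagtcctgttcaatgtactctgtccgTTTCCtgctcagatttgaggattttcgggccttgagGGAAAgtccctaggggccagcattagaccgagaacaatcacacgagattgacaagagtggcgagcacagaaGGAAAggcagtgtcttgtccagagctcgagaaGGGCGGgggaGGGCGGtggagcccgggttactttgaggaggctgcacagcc
Tgfb1 (chr7:25686752-25687001, plus strand): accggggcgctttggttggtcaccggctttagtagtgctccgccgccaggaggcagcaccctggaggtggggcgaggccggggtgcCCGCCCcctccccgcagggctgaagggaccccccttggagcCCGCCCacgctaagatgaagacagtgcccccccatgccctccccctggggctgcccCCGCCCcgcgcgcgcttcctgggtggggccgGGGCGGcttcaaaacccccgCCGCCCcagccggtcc
The Ifng window held 1 NFAT core, 172 bases before the start site, and 1 TATA box, 30 bases before it, at a GC content of 45.2%. The Csf1 window held 3 NFAT cores and 2 GC boxes and had 56.4% GC, and the Tgfb1 window held 5 GC boxes and had 75.2% GC. No other match to these motifs lay in the 3 windows. Of 32841 promoters of the same length, 55.6% held the NFAT core, 12.4% the TATA box, 32.7% the GC box, 6.75% the AP-1 site and 11.8% the T-box site. These matches are a description of the letters, and the arrays do not measure binding.

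Ifng was detected on all 8 arrays, and its log2 level was lowest in triple-negative cells. Its main probe, the brighter of its 2 and the one used for the gene, read 8.02 and 8.90 in triple-negative cells in experiments 1 and 2. PD-1+ cells read 10.44 and 10.58, LAG3+ cells 10.31 and 10.97, and double-positive cells 10.85 and 11.06. Both triple-negative arrays lay below the other 6, and LAG3+ overlapped with both of the other receptor-bearing populations.

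**Figure D1:**
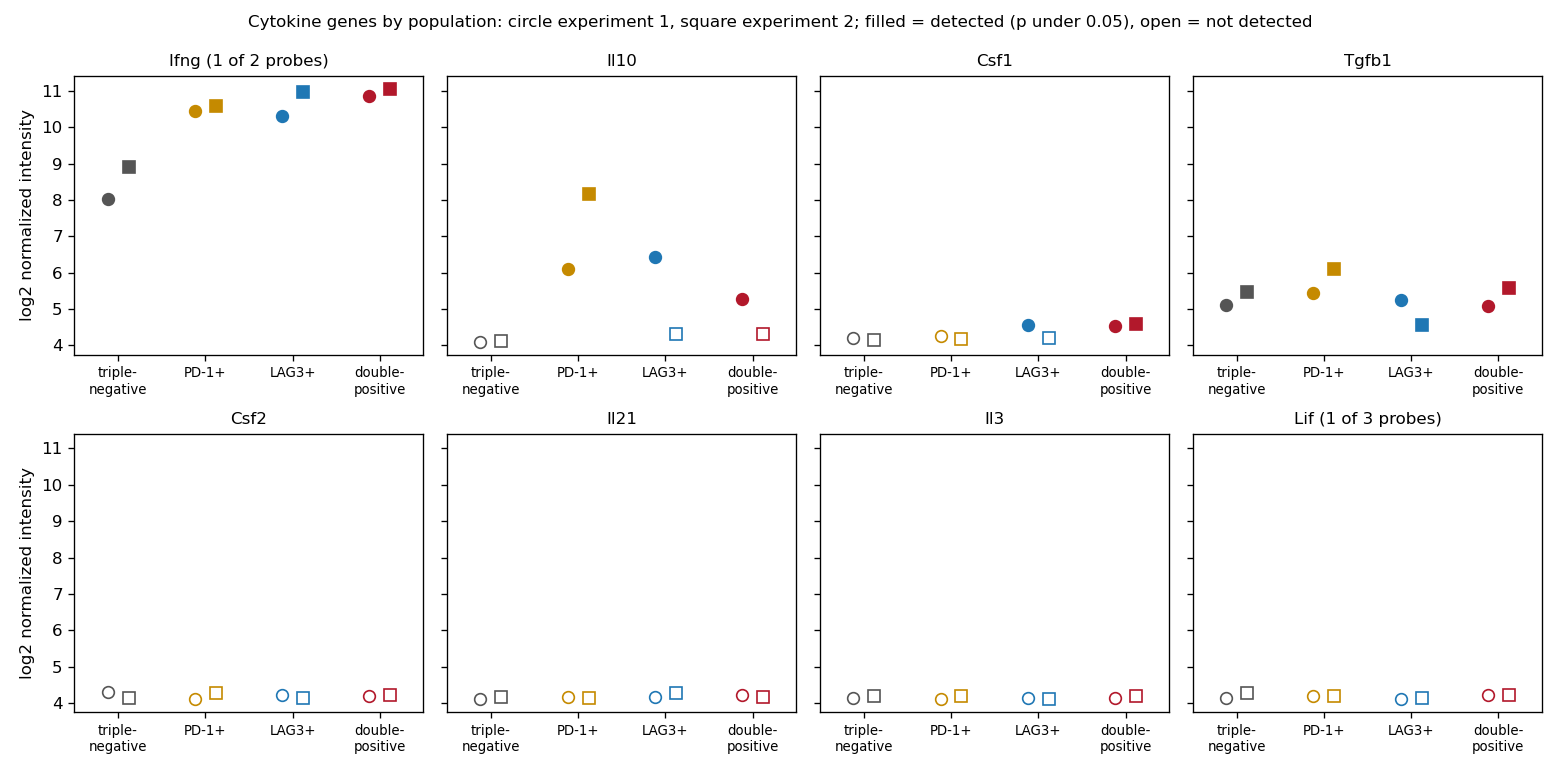
Log2 normalized intensity (vertical axis) of the 8 cytokine genes with a probe, in the 4 sorted populations. Each point is 1 array (circle, experiment 1; square, experiment 2), and open points are not detected; Ifng stands at 8.02 to 8.90 in triple-negative cells and at 10.31 to 11.06 elsewhere, Il10 is open in triple-negative cells, and Csf2, Il21, Il3 and Lif are open throughout.

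Taking LAG3+ and double-positive cells together, Ifng rose 5.06-fold over triple-negative cells (log2 change 2.34 ± 0.357 SE, n = 2 arrays per population, limma adjusted p = 0.0348), by 2.56 in experiment 1 and 2.11 in experiment 2. It was the only one of the 4 tested members past the threshold in that comparison, where 1.23% of all tested genes were called (0.519% as higher and 0.709% as lower). Each population alone gave a change of similar size that did not pass an adjusted p of 0.05 in limma's fit. Double-positive minus triple-negative was 2.49 ± 0.412 (5.63-fold, adjusted p = 0.0508, or 0.0369 with the experiment as a block). LAG3+ minus triple-negative was 2.18 ± 0.412 (4.54-fold, adjusted p = 0.117), and PD-1+ minus triple-negative was 2.05 ± 0.412 (4.14-fold, adjusted p = 0.0806). Without PD-1+ array 1 or 2 the last was 2.12 or 1.98. These comparisons share the triple-negative arrays. All 5 tested melanoma markers were also higher than in triple-negative cells, with median changes of 2.93 (PD-1+), 1.97 (LAG3+) and 1.52 (double-positive). Tyr and Mitf, also listed, were detected on no array. In experiments 1 and 2 the medians were 1.29 and 4.19 (PD-1+), 0.875 and 3.47 (LAG3+), and 0.66 and 3.49 (double-positive). In double-positive cells Pmel changed by 2.56 and Gpnmb by 3.23, but another probe of each gave 0.01 and 0.33. None of these markers passed the threshold, and their part in the Ifng values was not tested.

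None of the 4 tested members passed the adjusted threshold in any of the 6 comparisons between 2 populations. The share of all tested genes called was 0.938% for double-positive, 0.152% for LAG3+ and 0.532% for PD-1+ against triple-negative cells. It was 0% for double-positive against LAG3+, 0.0507% for double-positive against PD-1+ and 0.0760% for LAG3+ against PD-1+. At an unadjusted limma p under 0.05, 1, 1, 2, 0, 1 and 0 members passed in the same order, where the corresponding share of all tested genes was 13.6%, 9.32%, 14.8%, 2.64%, 14.7% and 11.5%. The median change of the 4 tested members was 0.54 for double-positive, 0.74 for LAG3+ and 1.27 for PD-1+ cells against triple-negative cells, where the median over all tested genes was -0.01, -0.01 and -0.04. Il10 and Csf1 were detected on neither triple-negative array and passed the filter only through the other populations. The sign of these medians was therefore set in part by the filter and is no result about the members.

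Among the receptor-bearing populations the order of mean Ifng levels was PD-1+ (10.51), LAG3+ (10.64) and double-positive (10.95), with no difference past the threshold. Double-positive minus LAG3+ was 0.31 ± 0.412 (adjusted p = 1), double-positive minus PD-1+ was 0.44 ± 0.412 (adjusted p = 0.662), and LAG3+ minus PD-1+ was 0.13 ± 0.412 (adjusted p = 0.929), all from limma. The dimmer Ifng probe was detected on all 8 arrays and correlated with the brighter one at r = 0.872 over 8 arrays. It read 4.53 and 5.12 (triple-negative), 6.53 and 5.52 (PD-1+), 6.47 and 6.10 (LAG3+), and 6.74 and 6.94 (double-positive). Its lowest arrays were again the triple-negative ones, and its highest the double-positive ones. As a row of its own among 9864 probes, it gave 2.02 ± 0.43 for double-positive (limma adjusted p = 0.101), 1.46 ± 0.43 for LAG3+ (0.338) and 1.20 ± 0.43 for PD-1+ (0.275), each against triple-negative cells. For LAG3+ and double-positive cells together it gave 1.74 ± 0.372 (adjusted p = 0.0918), so the Ifng call rests on 1 of its 2 probes.

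The order of the population means was the same on each scale tried, but the distance of PD-1+ cells from the others depended on how the arrays were brought to 1 scale. LAG3+ minus PD-1+ was 1.33 with no normalization between arrays (limma adjusted p = 0.603) and 0.09 with scaling to a median, against 0.13 above. The unnormalized intensity of the main Ifng probe was 623.8 and 377.3 (triple-negative), 931.2 and 505.8 (PD-1+), 1781.9 and 1504.6 (LAG3+), and 2779.2 and 2159 (double-positive). On that scale LAG3+ and double-positive cells lay above PD-1+ cells in both experiments. With background correction but no normalization between arrays, PD-1+ minus triple-negative was 0.59 (limma adjusted p = 0.539), against 2.05 after quantile normalization. The median over all tested genes was then -0.78 in that comparison. Double-positive minus triple-negative was 2.53 without normalization, where the median over all tested genes was -0.04, and its adjusted p was 0.224. With scaling to the median of the 3440 probes detected on all 8 arrays, the PD-1+ change was 2.08 (adjusted p = 0.256) and the double-positive change 2.47 (adjusted p = 0.0779). For LAG3+ and double-positive cells together, Ifng stood at 2.32 (adjusted p = 0.0474) with that scaling and at 2.23 (adjusted p = 0.184) with no normalization. Both settings were chosen after seeing the data.

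**Figure D2:**
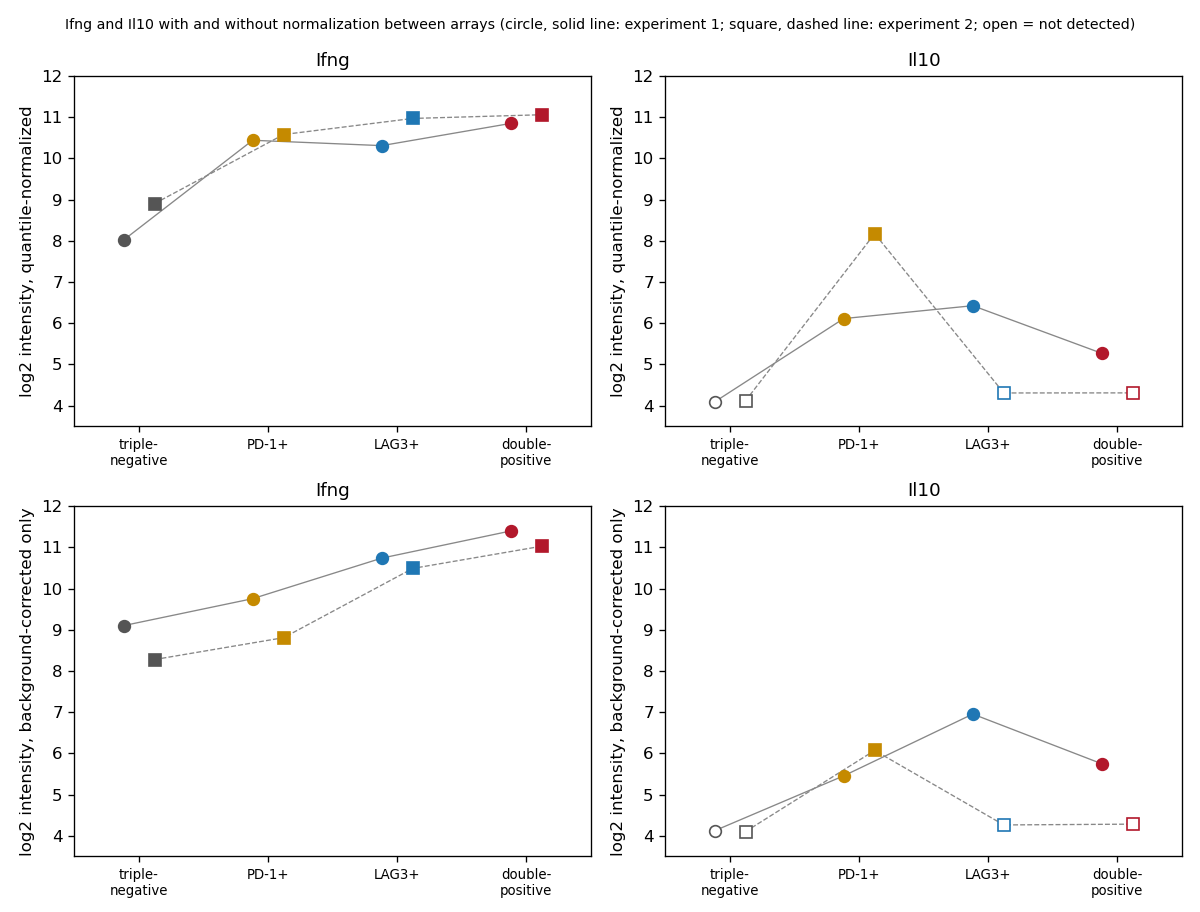
Log2 intensity (vertical axes) of Ifng and Il10 by population, after quantile normalization (top) and after background correction alone (bottom), 1 point per array with lines joining the arrays of an experiment and open points not detected. In PD-1+ cells Ifng stands at 10.44 and 10.58 in the top row, beside LAG3+ cells, and at 9.76 and 8.81 in the bottom row, where it lies below LAG3+ cells in both experiments.

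The call also depended on single arrays. Leaving out either triple-negative, either LAG3+ or either double-positive array took the adjusted p for LAG3+ and double-positive cells together to between 0.113 and 0.151, with changes of 1.90 to 2.78. Leaving out either PD-1+ array left it at 0.0302. The genes whose log2 levels were most like Ifng over the 8 arrays were Gapdh (r = 0.991) and Aldoa (r = 0.98), both enzymes of glycolysis, and Lgals1 (r = 0.986), which encodes galectin-1. Gapdh read 10.85 and 11.42 in triple-negative cells and 12.38 to 13 on the other 6 arrays. These correlations are over 8 arrays that share populations and normalization.

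Il10 was detected on 4 of 8 arrays: both PD-1+ arrays and the experiment 1 arrays of LAG3+ and double-positive cells. Its log2 level was 4.09 and 4.12 in triple-negative cells, where neither array detected it. In the order of experiments 1 and 2, PD-1+ cells read 6.11 and 8.17, LAG3+ cells 6.43 and 4.31, and double-positive cells 5.27 and 4.31. Outside the triple-negative cells, the replicates differed by 0.96 to 2.12, and which population was highest differed between experiments.

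After quantile normalization, PD-1+ cells had at least 6.37-fold more Il10 signal than triple-negative cells (fitted log2 change 3.04 ± 0.877, limma adjusted p = 0.179). The bound is the lowest detected signal of each array on that scale, and it leaves out the standard error. Against the same kind of bound, PD-1+ cells were at least 3.40-fold higher in experiment 1 and at least 11.9-fold higher in experiment 2. The fitted double-positive minus PD-1+ change was -2.35 ± 0.877 (adjusted p = 0.286). In experiment 1 both arrays detected Il10 and the difference was -0.84, and in experiment 2, with Il10 not detected in double-positive cells, PD-1+ cells were at least 12.6-fold higher. Between LAG3+ and PD-1+ cells, LAG3+ was higher by 0.31 in experiment 1, and PD-1+ was at least 12.5-fold higher in experiment 2, where LAG3+ did not detect Il10 (fitted LAG3+ minus PD-1+ -1.78 ± 0.877, adjusted p = 0.5). None of these differences passed the threshold. The fitted change over triple-negative cells was 1.26 ± 0.877 for LAG3+ (limma adjusted p = 0.817) and 0.69 ± 0.877 for double-positive cells (adjusted p = 0.904). Each of these populations detected Il10 in experiment 1 only, so no lower bound on the fold is given for them.

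The unnormalized Il10 intensity was highest on LAG3+ array 1, at 194, followed by PD-1+ array 2 at 124.4, double-positive array 1 at 124.1 and PD-1+ array 1 at 110.6. The other 4 arrays lay between 79.3 and 86.1. With no normalization between arrays, PD-1+ minus triple-negative was 1.65 (limma adjusted p = 0.441) and double-positive minus PD-1+ was -0.75 (adjusted p = 0.729), so both changes were smaller in the same direction. After quantile normalization, the first change was 2.01 without PD-1+ array 2 and 4.07 without PD-1+ array 1, and the second was -1.32 and -3.38.

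PD-1+ array 2, the array with the highest normalized Il10, also had the highest summed signal for CD8 T cell, macrophage, dendritic cell, B cell and melanoma markers. It was highest as well for CD4 and regulatory T cell markers, and lowest for NK cell and neutrophil markers. The sum over 7 CD8 T cell markers was 14000 there (10350 to 13850 elsewhere). The summed intensity of 13 macrophage and monocyte markers was 1691 there and 255.9 to 536.9 on the other 7 arrays, with 8 of the 13 detected and Adgre1, C1qc, Itgam, Ccr2 and Mrc1 not detected. The sum over 9 dendritic cell markers was 1441 there (269.9 to 1057 elsewhere) and over 7 melanoma markers 4503 (210.7 to 2394 elsewhere). The sum over 4 B cell markers was 337.7 (72.26 to 311.0 elsewhere), over 4 NK cell markers 110.8 (116.4 to 265.5 elsewhere), over 4 neutrophil markers 74.18 (74.55 to 174.3 elsewhere) and over 8 fibroblast and endothelial markers 179.4 (153.8 to 256.2 elsewhere). Over 6 CD4 and regulatory T cell markers it was 161.4, against 116.4 to 160.3 elsewhere, with 1 of the 6 detected on PD-1+ array 2. That gene, Foxp3, read 6.08 there and 4.35 to 5.19 elsewhere, and Cd4, Cd40lg, Ikzf2, Il2ra and Zbtb7b were not detected there. The part of such cells in the Il10 signal was not tested, and in bulk samples more cells of a type and more RNA per cell cannot be told apart. On LAG3+ array 1, where Il10 was also detected, the macrophage sum was 322.0, within the range of the arrays without Il10 (260.0 to 447.9). The most similar profiles to Il10 over the 8 arrays were those of Rala (r = 0.936), Amigo1 (0.934) and Adra2c (0.933). All of these had their highest value on PD-1+ array 2. Rala ran from 4.11 to 5.35, Amigo1 from 4.13 to 5.08 and Adra2c from 4.235 to 5.38. These levels are near the lowest detected levels of the arrays (4.345 to 4.999), so the correlations rest in part on values not above background.

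**Figure D3:**
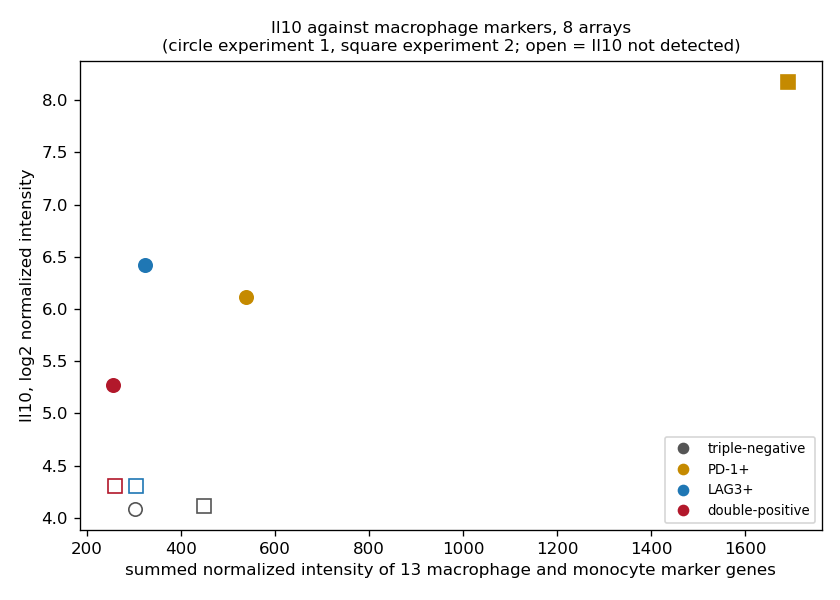
Il10 log2 normalized intensity (vertical axis) against the summed normalized intensity of 13 macrophage and monocyte marker genes (horizontal axis), 1 point per array, open where Il10 was not detected. PD-1+ array 2 stands alone at 8.17 and 1691, while LAG3+ array 1 holds detected Il10 (6.43) at a marker sum of 322.0.

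Tgfb1 was detected on all 8 arrays, at log2 levels between 4.57 and 6.11. It read 5.11 and 5.48 (triple-negative), 5.44 and 6.11 (PD-1+), 5.24 and 4.57 (LAG3+), and 5.07 and 5.59 (double-positive). The groups overlapped in every comparison between 2 populations except LAG3+ against PD-1+. With 2 arrays against 2, groups that do not overlap give only p = 0.333 in an exact test. LAG3+ against PD-1+ was also the comparison with the smallest p, at -0.87 ± 0.413 (1.83-fold lower in LAG3+, limma adjusted p = 0.485), -0.21 in experiment 1 and -1.54 in experiment 2. Without PD-1+ array 1 it was -1.21 and without PD-1+ array 2 -0.54. With no normalization between arrays its sign turned, to 0.31 (adjusted p = 0.873). Its most similar profiles were Naa60 (r = 0.977), Rpf1 (0.959) and Eif2ak1 (0.948).

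Csf1 stayed near the detection limit. It was detected on both double-positive arrays (4.54 and 4.58) and on LAG3+ array 1 (4.57), and not on LAG3+ array 2 (4.21), the triple-negative arrays (4.19 and 4.16) or the PD-1+ arrays (4.26 and 4.16). Double-positive over triple-negative cells had the smallest p (fitted change 0.39 ± 0.297, limma adjusted p = 0.725). The bound on the population means was 1.06-fold. In experiment 2 the double-positive level (4.58) lay under the lowest detected level of the triple-negative array (4.599), so the bound does not hold there. Csf1 passed the filter only through double-positive and LAG3+ arrays, which set the direction of this change in part. Its most similar profiles were Fam20a (r = 0.976), Zdhhc16 (0.975) and Tubgcp4 (0.973), the last also near the detection limit (4.12 to 4.86). Between the tested members the correlations over the 8 arrays were 0.354 for Ifng with Il10, 0.497 for Ifng with Csf1 and 0.615 for Il10 with Tgfb1. The other pairs lay between -0.0847 and 0.0171.

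Csf2, Il21, Il3 and Lif were detected on no array with any of their 6 probes. Their log2 levels lay between 4.10 and 4.50, and unnormalized intensities between 70.9 and 95.6. The lowest detection p-value among them was 0.06266, for a Lif probe. The lowest log2 level that counted as detected was 4.34 on triple-negative array 1 and 4.999 on PD-1+ array 2, so a level under that limit was not detectable here. Il3 and Csf2 (chromosome 11) and Il2 and Il21 (chromosome 3) are neighbours, with 0 protein-coding genes between them in RefSeq.

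Receptor chains for the cytokines were tested for 15 of 18 genes. In double-positive against triple-negative cells 0 rose and 2 fell, both chains of the interferon gamma receptor, where 0.405% of all tested genes were called higher and 0.532% lower. The median change was -0.56 over the list and -0.01 over all tested genes. These shares and this median over all tested genes stand beside every list below in the same comparison. Ifngr2 read 8.21 and 8.13 (triple-negative), 7.88 and 7.45 (PD-1+), 5.75 and 6.04 (LAG3+), and 5.47 and 5.55 (double-positive). The LAG3+ and double-positive arrays were all below the others, and the fall in double-positive cells was 6.32-fold (log2 -2.66 ± 0.312, limma adjusted p = 0.0164). Ifngr1 read 9.37 and 9.62 (triple-negative), 8.14 and 8.09 (PD-1+), 8.14 and 7.93 (LAG3+), and 7.74 and 7.28 (double-positive). It fell 3.97-fold in double-positive cells (-1.99 ± 0.317, limma adjusted p = 0.0463), which was 0.0566 with the experiment as a block and 0.133 with median scaling. Both receptor calls were lost when any 1 triple-negative, LAG3+ or double-positive array was left out, with adjusted p from 0.0666 to 0.155 for Ifngr2 and from 0.116 to 0.328 for Ifngr1.

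Il10ra, the ligand-binding chain of the IL-10 receptor, read 6.80 and 6.04 in triple-negative cells and 7.78 to 8.98 on the other 6 arrays, a change in double-positive cells of 2.19 ± 0.499 (limma adjusted p = 0.106). Il6st, the shared gp130 chain used by LIF, was -2.16 ± 0.434 (adjusted p = 0.0844) and Il3ra at least 1.71-fold higher (adjusted p = 0.257). In LAG3+ and double-positive cells together, the same 2 receptor genes fell and 0 rose. Ifngr2 changed by -2.47 ± 0.27 (limma adjusted p = 0.0132) and Ifngr1 by -1.73 ± 0.274 (0.0398, or 0.0518 with the block). Without any 1 of those 6 arrays these p-values ran from 0.0666 to 0.118 and from 0.107 to 0.244.

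Of 16 tested genes of the interferon gamma pathway and its targets (22 listed), 0 rose and 0 fell in double-positive against triple-negative cells. Of all tested genes, 0.405% passed the adjusted threshold as higher and 0.532% as lower, so a count of 0 does not set the list apart. The list median was -0.95, against -0.01 over all tested genes. The count was sensitive to the processing, with 0 genes past the threshold under 12 of 21 alternatives and 1 to 3 under the other 9, among them 3 when either PD-1+ array or both were left out. Igtp (-2.37 ± 0.421, limma adjusted p = 0.0636), an interferon-induced GTPase, and Irf9 (-2.18 ± 0.634, 0.19), an interferon response factor, were lowest, and Irf1, a transcription factor induced by interferon gamma, was nearest the threshold (-1.88 ± 0.31, 0.0508). A dimmer Irf9 probe gave -0.85, and 3 other Irf1 probes gave -2.83, -0.15 and -0.28. Psmb9, an immunoproteasome subunit, was 1.07 ± 0.316 (0.197) and Gbp3, a guanylate-binding protein, 0.97 ± 0.593 (0.593). For LAG3+ and double-positive cells together 1 gene fell, Irgm1, another such GTPase (-1.63 ± 0.27, limma adjusted p = 0.0458, or 0.0588 with the block), and 0 rose. Its adjusted p was 0.142 to 0.251 without any 1 array of the populations compared. The combined count was 1 under 1 of 21 alternatives, higher under 10 (up to 4, and 3 without either or both PD-1+ arrays) and 0 under the other 10. Alongside these, all 7 tested macrophage markers were lower in double-positive than in triple-negative cells. Their median change was -0.65 (-0.28 in experiment 1 and -1.13 in experiment 2). The 5 tested dendritic cell markers (-0.90, with -1.32 and -0.775), 3 fibroblast and endothelial markers (-0.255) and the B cell marker Cd79b (-1.97) were all lower too. All 5 tested melanoma markers were higher, by a median of 1.52 (0.66 in experiment 1 and 3.49 in experiment 2), as were 2 of 3 NK cell markers (0.66). Medians of the other lists were -0.195 (CD8 T cells), 0.07 (CD4 and regulatory T cells) and -0.07 (neutrophils). None of these markers passed the threshold. Their part in the list's values was not tested.

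**Figure D4:**
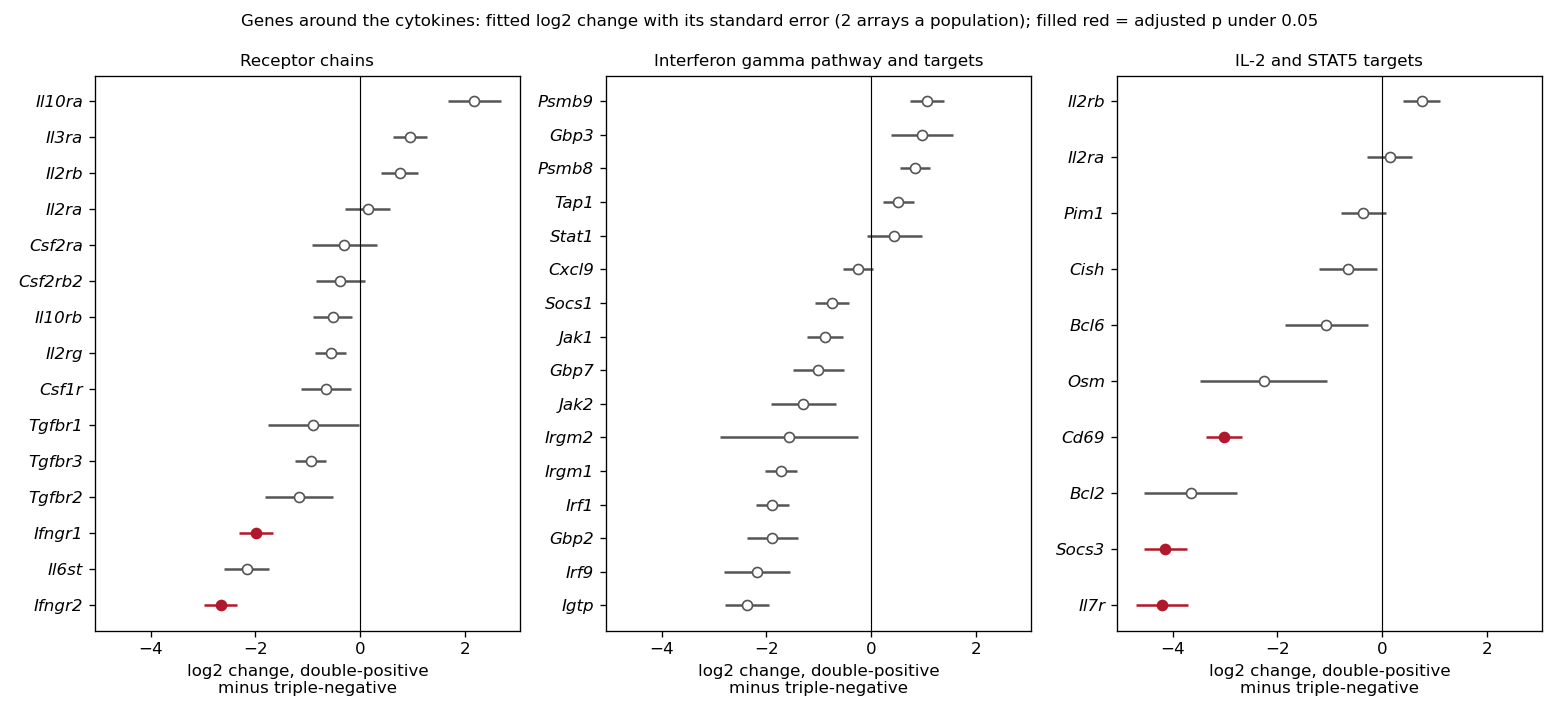
Log2 change between double-positive and triple-negative cells (horizontal axis, points with standard errors from limma's fit, 2 arrays per population) for the tested genes of 3 lists. Filled points passed an adjusted p of 0.05; they are Ifngr1 and Ifngr2 among the receptors and Socs3, Cd69 and Il7r among the IL-2 and STAT5 targets, all below 0, and none in the interferon gamma list.

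Of 10 tested IL-2 and STAT5 targets (13 listed), 0 rose and 3 fell in double-positive cells, with a list median of -1.66. The 3 were Il7r, the IL-7 receptor chain (18.4-fold lower, -4.20 ± 0.494, limma adjusted p = 0.0164), Socs3, a feedback inhibitor of cytokine signalling (17.6-fold, -4.14 ± 0.417, 0.013), and Cd69, an early activation and retention receptor (8.15-fold, -3.03 ± 0.341, 0.0164). Without any 1 triple-negative, LAG3+ or double-positive array, the adjusted p rose to at least 0.0688 for Il7r, 0.0542 for Socs3 and 0.0658 for Cd69, and to at most 0.155, 0.149 and 0.152. Il7r is a gene that IL-2 signals are known to lower, so the list does not run in 1 direction. Il2rb (0.76 ± 0.356, limma adjusted p = 0.428) and Il2ra (0.14 ± 0.433, 0.976) had the highest changes of the list. Socs3 read 11.41 and 10.85 (triple-negative), 8.87 and 9.87 (PD-1+), 8.31 and 8.27 (LAG3+), and 6.89 and 7.09 (double-positive), with no overlap between populations. The IL-10 pathway list shares Socs3, which was its only gene called of 7 tested (list median -0.52), while Stat3 was 1.47 ± 1.17 (limma adjusted p = 0.738) and Jak1 -0.89 ± 0.343 (0.32).

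Of 14 tested other cytokine genes (24 listed), Ccl3, a chemokine of activated T cells, rose 19.3-fold in double-positive cells (4.27 ± 0.442, limma adjusted p = 0.0135), and 0 fell. The list median was -0.14. Ccl3 read 4.68 and 4.24 (triple-negative), 6.87 and 6.97 (PD-1+), 7.86 and 6.67 (LAG3+), and 8.68 and 8.79 (double-positive). It was detected on 1 of the 2 triple-negative arrays, so the fold rests in part on a level not above background. Its adjusted p was 0.0397 without either LAG3+ array and reached 0.149 without 1 triple-negative or double-positive array. Areg was at least 4.27-fold higher in double-positive cells (limma adjusted p = 0.16), and Osm (-2.26 ± 1.21, 0.515) and Il16 (-1.18 ± 0.854, 0.697) were lowest.

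Among 24 tested transcription factors (36 listed) Irf8 rose 7.43-fold (2.89 ± 0.35, limma adjusted p = 0.0181) and 0 fell, with a list median of -0.30. Its adjusted p was 0.0648 to 0.167 without any 1 triple-negative, LAG3+ or double-positive array. Zbtb32 was at least 2.50-fold higher (adjusted p = 0.2), and the AP-1 subunits Jun (-2.79 ± 0.803, 0.185) and Junb (-2.12 ± 0.478, 0.104) were lowest. In the list of regulators of AU-rich cytokine mRNA, some members bind AU-rich elements in transcripts such as Ifng and affect how fast they decay. Of 11 tested genes of that list (13 listed) 1 fell and 0 rose, with a list median of -0.35. That was Zfp36l1, which promotes mRNA decay (4.70-fold lower, -2.23 ± 0.351, limma adjusted p = 0.0451, and -2.13 by another probe). Its relative Zfp36 was -2.33 ± 0.397 (0.0554) and fell for LAG3+ and double-positive cells together (-2.18 ± 0.344, limma adjusted p = 0.0394), where Zfp36l1 did not pass (-1.75 ± 0.304, 0.0526). Without any 1 of the same 6 arrays, the adjusted p was 0.116 to 0.326 for Zfp36l1 and 0.0724 to 0.226 for Zfp36, and with median scaling it was 0.0838 and 0.0521. Khsrp (0.65 ± 0.515, limma adjusted p = 0.737) and Elavl1 (0.48 ± 0.341, 0.687) were highest.

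Of 10 tested genes of TGF-beta activation, signalling and targets (16 listed), 0 passed in double-positive cells (1 under 6 of 21 alternatives), with a list median of -1.05. Itgae, the integrin chain CD103 that TGF-beta induces, was -4.24 ± 0.952 (limma adjusted p = 0.104), and its other probes gave -4.32, -1.28 and -0.55. Tgif1 was -1.94 ± 0.69 (adjusted p = 0.277), and Itgav and Ltbp4 were at least 1.22-fold and 1.02-fold higher (adjusted p = 0.513 and 0.913). Ltbp4 was detected on the 2 double-positive arrays only, so it passed the filter through the population where it is higher. No gene of the 8 lists was called by limma in the comparisons of LAG3+ or PD-1+ with triple-negative cells or among the receptor-bearing populations.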

How the data were processed

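Total RNA of 8 samples was measured on a 1-colour Illumina bead array. The authors deposited unnormalized probe intensities with a detection p-value for each probe, per the file headers. They also deposited normalized intensities on a linear scale, made in a way that the sources used here do not state, which served as an alternative. The sources used here name no scanner software.

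The unnormalized values went through neqc of limma 3.58.1 in R 4.3.3, which subtracts background using negative controls recovered from detection p-values, adds an offset of 16, applies quantile normalization and returns log2 values. Quantile normalization gives all arrays 1 distribution, which raises the signals of the dim PD-1+ arrays, and the offset compresses changes of dim genes. The probe with the highest mean stood for a gene, and genes detected at p under 0.05 on at least 2 arrays were tested (7893 of 17830 names). Names came from the platform table, updated through RefSeq (GRCm38.p6): 23962 probes by gene identifier, 16 as listed, 1038 by accession, and 681 kept the deposited name.

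The 4 populations were compared in 7 contrasts with limma's lmFit and eBayes. The fit used the 8 arrays jointly and gave each population its own mean without a block, leaving 4 residual degrees of freedom and 2.98 from the prior. Tests were two-sided, and Benjamini-Hochberg adjustment was within a comparison at 0.05. A gene has 1 standard error per kind of contrast, from a spread pooled over populations. An exact test of 2 arrays against 2 cannot go below p = 0.333. The median standard error was 0.448, and the number of arrays limits the precision. Where a gene was detected on neither array of a population and on both of the other, its fold is a bound. The bound is set against the lowest detected signal of each array, or against the gene's own level there where that is higher. Such bounds hold on the quantile-normalized scale only, use the mean of the higher population and leave out the standard error. The genes concerned passed the filter through the populations that detected them, which set the direction of their change in part. The fit was checked on simulated data.

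The experiment number marks a shared experiment and pairs the samples: deviations from the population means correlated at 0.092 to 0.222 between populations. The members, gene lists and marker lists were chosen with earlier results of these data known. Named genes are the members, the 3 genes most correlated with each tested member, every list gene past the threshold, the 2 highest and 2 lowest of each list by their change between double-positive and triple-negative populations, and the sorted markers Lag3, Tnfrsf9 and Pdcd1. Tnfrsf9 averaged 4.94 (triple-negative), 7.41 (PD-1+), 7.63 (LAG3+) and 8.90 (double-positive) on the log2 scale, and Pdcd1 4.16, 4.83, 4.97 and 5.10. In the same order, Pdcd1 was detected on 0, 1, 2 and 2 arrays. It read 5.39 on PD-1+ array 1 and 4.27, not detected, on PD-1+ array 2. Alternatives covered background correction, normalization, filter, probe choice, block, array weights, variance trend, the arrays in the fit and leaving out each array. Figures were drawn with matplotlib.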

Additional observations from a re-analysis of the deposited data

How the results depend on the processing

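Each result was recomputed under up to 21 alternatives, 3 of them (no normalization between arrays, median scaling, and leaving out both PD-1+ arrays) chosen after seeing the data. The number of members called between double-positive and triple-negative cells was 0 and became 1, Ifng, with no background correction, an offset of 50, the replicate block, array weights, an intensity trend or without both PD-1+ arrays, and lay between 0 and 1 when single arrays were left out (1 without either PD-1+ array). For LAG3+ and double-positive cells together it was 1 and became 0 with the authors' normalized values, no filter or no normalization between arrays, and lay between 0 and 1 when single arrays were left out. The adjusted p of Ifng ranged from 0.0151 to 0.334 in the first comparison and from 0.00975 to 0.184 in the second. In the other 5 comparisons no member was called under any alternative run. The change of Tgfb1 in LAG3+ against PD-1+ cells turned to 0.31 with no normalization between arrays. Csf1 gave no value with the authors' values, where all its arrays were at the floor.

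The count of all genes called in double-positive against triple-negative cells was 74 and ranged from 0 to 229, 12 (0 to 66) for LAG3+ and 42 (0 to 295) for PD-1+ against triple-negative cells, 0 (0 to 12) for double-positive against LAG3+, 4 (0 to 378) for double-positive against PD-1+, 6 (0 to 165) for LAG3+ against PD-1+ and 97 (0 to 246) for the combined comparison. Median scaling moved the share of calls that were higher from 42.9% to 86.7% in PD-1+ against triple-negative cells, where it moved the median over all genes to 0.70, and from 50% to 15.8% in double-positive against PD-1+ cells. With no normalization between arrays no named list gene was called. Every list call was lost without any 1 of the triple-negative, LAG3+ or double-positive arrays, except Ccl3, which kept its double-positive call without either LAG3+ array and its combined call without LAG3+ array 2. Beyond Ifng in double-positive cells and the values printed beside Ifngr1 and Irgm1, the replicate block changed no call of a member or of a called list gene. The causes were not tested.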
